A study of Saccharomyces cerevisiae with 4 samples.

Results

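The respiratory chain and the mitochondrial ATP synthase of *Saccharomyces cerevisiae* were followed through 37 nuclear genes among the 6212 rows of the value table. They were chosen by systematic gene name: 3 NADH dehydrogenases, 4 succinate dehydrogenase subunits, 9 subunits of the bc1 complex, 2 cytochromes c, 8 subunits of cytochrome c oxidase and 11 subunits of the ATP synthase. All 37 had a row. The mitochondrially encoded subunits had 0 rows and were not analysed here.

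A trk1 trk2 double mutant in the BY4741 background, which lacks the potassium transporters Trk1 and Trk2, was compared with wild-type BY4741, a haploid laboratory strain. Both strains were in log phase at an A600 of 0.6, in Translucent K-free medium (residual potassium 15 µM) to which 50 mM KCl had been added, at 28 °C. Each of 4 two-colour arrays carried cDNA of both strains, and the arrays came from 2 experiments called independent, each with a dye swap. Experiment 1 was read as arrays 1 and 2, experiment 2 as arrays 3 and 4, and the mutant carried Cy5 on arrays 1 and 4. The labels do not say whether the mutant was 1 clone.

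Every value is the deposited log ratio of mutant over wild type, read as base 2. A positive value means a higher transcript level in the mutant, and 1 unit is a 2-fold difference. The labels state neither the base nor the direction. The direction was taken from the deleted genes: TRK1 read −6.13 and −4.60 on arrays 1 and 4 and TRK2 −4.23 on array 4, and these genes were empty on the remaining arrays. Arrays 1 and 4 both carried the mutant in Cy5. For arrays 2 and 3, which carried it in Cy3, the same direction was assumed. Over all genes tested, arrays 2 and 3 correlated positively with array 1, at 0.80 and 0.55. The arrays held 4797, 4690, 4972 and 5403 values, and their number limits the precision. Array 4 stood apart, with correlations of 0.27 to 0.39 with the other arrays over 4255 genes, against 0.55 to 0.80 among arrays 1 to 3. Ratios say nothing of the level in either strain, so the members cannot be ranked by abundance. Similar genes may share signal on a spot, and this could not be separated without the probe sequences.

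Yeast has no proton-pumping complex I. Single-protein NADH dehydrogenases on both faces of the inner mitochondrial membrane, together with succinate dehydrogenase, pass electrons to ubiquinone. From there they travel through the bc1 complex and cytochrome c to cytochrome oxidase, which reduces oxygen, and the ATP synthase uses the resulting proton gradient. On glucose, yeast mainly ferments and holds many of these genes down, and the Hap2/3/4/5 activator raises them on non-fermentable carbon sources.

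No transcript of the respiratory machinery that could be tested passed the threshold between the mutant and the wild type. Of 37 members, 31 had a value on all 4 arrays and entered the test, 5 had values on 1 to 3 arrays, and CYC1 had none. In limma, with experiment means against 0 and Benjamini-Hochberg adjustment over 4255 genes, 0 members passed an adjusted p of 0.05 in either direction. Over all genes tested the share was 3.36%, with 1.62% higher and 1.74% lower, so 0 of 31 was close to the background. At an unadjusted p under 0.05 there were 4 of 31, beside 20.2% of all genes. Of these, COX4 and COX6 were higher, beside 7.33% of all genes, and NDE1 and ATP20 lower, beside 12.9%. The absence of calls does not show equal expression, and untested members lay further down, CYC7 at −1.59 and −2.11 on arrays 3 and 4 and COX7 at −1.32 on array 3. The means of the tested members ran from −0.68 for ATP20 to 0.51 for COX6, and their standard errors from 0.16 to 0.26 (limma, n = 2 experiments). Limma draws these errors towards a variance shared over all genes (prior of 5.33 degrees of freedom). They are therefore not each gene's own spread, and 0.16 was also the lowest error over all genes. The 95% interval lay within 2-fold of no change for 29 of the 31, beside 85.8% of all genes. The exceptions were NDE1 and ATP20, whose intervals reached −1.07 and −1.12.

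**Figure D1:**
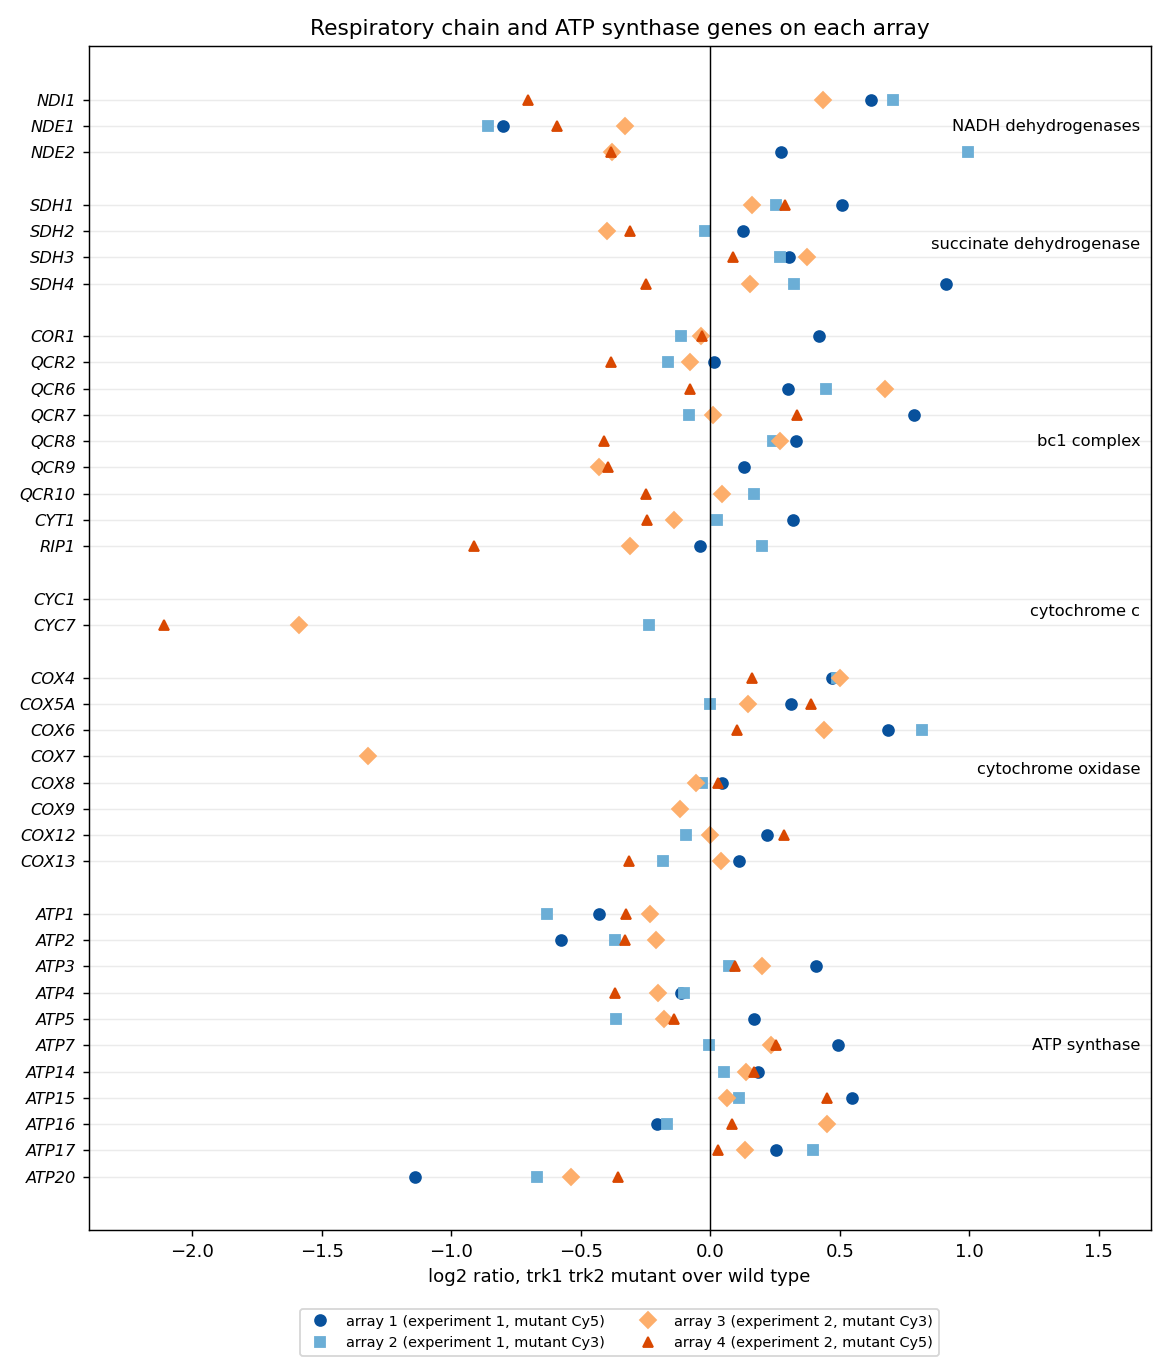
Log2 ratio of mutant over wild type (horizontal axis) for each of the 37 members (rows, by complex), with 1 point per array. Most points lie within 1 unit of 0, ATP20 on array 1 (−1.14), COX7 on array 3 (−1.32) and CYC7 on arrays 3 and 4 (−1.59 and −2.11) lie further down, and CYC1 has no point.

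The complexes did not move as blocks. Of the 31 tested members, 9 were positive on all 4 arrays and 5 negative on all 4, and 17 had mixed signs. Over all genes tested 17.5% were positive and 21.1% negative on all 4. The median over the 31 members was 0.27, 0.00, 0.04 and −0.08 on arrays 1 to 4, and the median over all genes tested was −0.02, −0.09, −0.09 and 0.04. The members thus lay above the gene median on arrays 1, 2 and 3 and below it on array 4. The median of the members' means was 0.11 and that of all genes −0.04. The SD of the means was 0.29 over the members and 0.44 over all genes. Across the 31 members, the means of experiments 1 and 2 correlated with a Pearson r of 0.52, beside 0.57 across all genes. These points share arrays and genes of one pathway, so the correlation is a description.

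The order of the complexes changed from array to array. Over the tested members, the median of the means was 0.27 for succinate dehydrogenase, 0.16 for cytochrome oxidase, 0.13 for the NADH dehydrogenases, 0.06 for the bc1 complex and 0.04 for the ATP synthase. With 1 array left out the medians ran from 0.19 to 0.32 for succinate dehydrogenase, 0.08 to 0.23 for cytochrome oxidase, −0.05 to 0.285 for the NADH dehydrogenases, −0.07 to 0.13 for the bc1 complex and −0.05 to 0.13 for the ATP synthase, so the last 3 had no settled sign. When members with a value on at least 1 array were included, cytochrome oxidase stood at 0.05 and the bc1 complex at −0.01. These medians span less than the range within any single complex, the narrowest being 0.45 in succinate dehydrogenase. Succinate dehydrogenase had the highest complex median on arrays 1 and 3, the NADH dehydrogenases on array 2 and cytochrome oxidase on array 4. Over the tested members, the cytochrome oxidase median minus the ATP synthase median was 0.09, 0.09, 0.03 and 0.10 on arrays 1 to 4. On array 3 all 8 cytochrome oxidase genes had a value, and with COX7 and COX9 included the median there was 0.02, below the 0.07 of the ATP synthase. The median of the bc1 complex was above that of the ATP synthase on arrays 1 and 2 and below it on arrays 3 and 4. No test was made between the complexes, since subunits of one complex are not replicates of a condition.

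**Figure D2:**
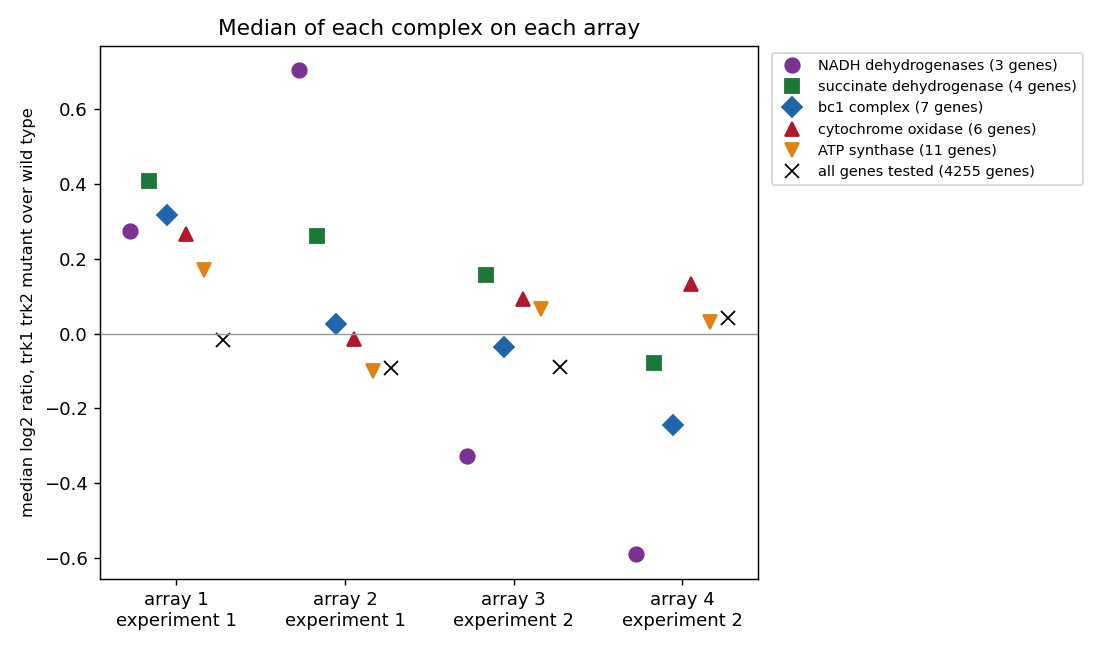
Median log2 ratio of mutant over wild type (vertical axis) over the tested members of each complex, on each array (horizontal axis), with the median of all 4255 genes tested. The NADH dehydrogenase points spread most, between 0.70 on array 2 and −0.59 on array 4, and the ATP synthase points lie between −0.10 and 0.17.

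The NADH dehydrogenases gave 3 different patterns. NDE1 (YMR145C), the main external enzyme, which oxidises cytosolic NADH, read −0.80, −0.86, −0.33 and −0.59 on arrays 1 to 4. It was below 0 on every array, with a mean of −0.64 ± 0.18 (limma SE, n = 2 experiments; 95% interval −1.07 to −0.21; adjusted p = 0.116). Its paralogue NDE2 (YDL085W), the second external enzyme, read 0.27, 0.997, −0.38 and −0.38, so the experiments lay on opposite sides of 0. The mean of NDE2, 0.13 ± 0.26 (adjusted p = 0.811), therefore describes neither experiment. The difference NDE1 minus NDE2 was −1.07 and −1.85 on arrays 1 and 2, and 0.05 and −0.21 on arrays 3 and 4. NDI1 (YML120C), the internal enzyme, which oxidises matrix NADH, read 0.62, 0.70, 0.44 and −0.70, with a mean of 0.26 ± 0.23 (adjusted p = 0.544). It was positive on arrays 1 to 3 and negative on array 4. Among the tested members, NDE1 and ATP20 were at least 1.5-fold lower in the mean and negative on every array. That makes 2 of 31, beside 6.67% of all genes, and 0 of 31 were at least 1.5-fold higher and positive on every array, beside 3.88%. NDE1 passed the test in 4 of 13 alternative fits, with adjusted p between 0.0201 and 0.52 over the 13.

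Succinate dehydrogenase, which oxidises succinate in the TCA cycle and reduces ubiquinone, had 3 positive means of 4. The flavoprotein subunit SDH1 (YKL148C) read 0.51, 0.25, 0.16 and 0.29, a mean of 0.30 ± 0.17 (adjusted p = 0.358). The membrane anchor SDH3 (YKL141W) was also positive on all 4 arrays, between 0.09 and 0.37. The other membrane anchor, SDH4 (YDR178W), lay at 0.91 on array 1 and at −0.25 on array 4. The iron-sulfur subunit SDH2 (YLL041C) was the lowest of the complex, at 0.13, −0.02, −0.40 and −0.31 with a mean of −0.15 ± 0.18 (adjusted p = 0.674). SDH9 (YJL045W), a minor paralogue of SDH1, read 0.80, 0.53, 0.41 and 0.66, a mean of 0.60 ± 0.16 (adjusted p = 0.114). SDH1 lay below SDH9 on each array, by 0.25 to 0.38, and both rows may share signal. The minor isoforms SHH3 and SHH4 had empty spots, were not tested and did not share the sign of SDH9. SHH3 read −0.15, −0.09 and 0.22 on arrays 2, 3 and 4, and SHH4 −0.27 and −1.04 on arrays 1 and 4.

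The bc1 complex, which moves electrons from ubiquinol to cytochrome c and pumps protons, had no member with the same sign on all 4 arrays among the 7 tested. The means ran from −0.27 to 0.34, with adjusted p from 0.309 for QCR6 upward. The highest mean was that of QCR6 (YFR033C), an acidic subunit, at 0.30, 0.45, 0.67 and −0.08, 0.34 ± 0.16 (adjusted p = 0.309). It ran from 0.147 without array 3 to 0.52 without array 4, and QCR7 was higher than QCR6 without array 2 (0.48 against 0.30) and without array 3 (0.35 against 0.15). The lowest was RIP1 (YEL024W), the Rieske iron-sulfur protein, at −0.04, 0.20, −0.31 and −0.91, a mean of −0.27 ± 0.21 (adjusted p = 0.518), between −0.42 without array 3 and −0.12 without array 4. On array 4, 6 of the 7 members were negative, and on array 1, 6 of the 7 were positive. COR1 (YBL045C) and QCR2 (YPR191W), the core proteins, averaged 0.06 and −0.15, and CYT1 (YOR065W), cytochrome c1, averaged −0.01. The small subunits QCR7 (YDR529C) and QCR8 (YJL166W) averaged 0.26 and 0.11.

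Of the bc1 members with an empty spot, QCR9 (YGR183C) read 0.13, −0.43 and −0.40 on arrays 1, 3 and 4, and QCR10 (YHR001W-A) read 0.17, 0.05 and −0.25 on arrays 2, 3 and 4. Both are small subunits, and both changed sign between arrays. When limma was run on genes with a value in each experiment, QCR9 gave −0.14 ± 0.20 (adjusted p = 0.737) and QCR10 0.03 ± 0.18 (adjusted p = 0.934).

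Cytochrome c was measured through its minor form alone. CYC1 (YJR048W), which encodes the major isoform under aerobic growth, was empty on all 4 arrays. CYC7 (YEL039C), the isoform favoured when oxygen is scarce, read −0.24, −1.59 and −2.11 on arrays 2, 3 and 4. Its values were lower in experiment 2, and it had no value on array 1. In the fit of genes with a value in each experiment its mean was −1.04 ± 0.38 (limma adjusted p = 0.223), and in the fit of unaveraged arrays −1.31 (adjusted p = 0.0901). The shift between cytochrome c isoforms could not be read, since CYC1 was not measured.

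In cytochrome oxidase, which transfers electrons to oxygen, 4 of 6 tested members had a positive mean, and COX4, COX5A and COX6 were positive on all 4 arrays. COX6 (YHR051W), a subunit needed for assembly, had the highest mean of the 31 tested members. Without array 2, QCR7 stood as high (0.48 for both). COX6 read 0.69, 0.82, 0.44 and 0.10, a mean of 0.51 ± 0.19 (95% interval 0.06 to 0.97; adjusted p = 0.197), and its array values differed by more than its mean. COX4 (YGL187C), also needed for assembly, read 0.47, 0.49, 0.50 and 0.16, a mean of 0.41 ± 0.16 (adjusted p = 0.239). Its first 3 values lay close together and array 4 below them. COX13 (YGL191W), a peripheral subunit, had the lowest mean of the 6 tested, except without array 4, where COX8 was lower. It read 0.11, −0.18, 0.04 and −0.31, a mean of −0.09 ± 0.16 (adjusted p = 0.795). COX8 (YLR395C) stayed between −0.06 and 0.05 on the 4 arrays, and COX12 (YLR038C) between −0.10 and 0.28. COX7 (YMR256C) and COX9 (YDL067C) were listed on array 3 alone, at −1.32 and −0.12, and have no replicate. The COX7 value was the lowest of any cytochrome oxidase member on any array.

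COX5A and COX5B encode alternative forms of one subunit, the first used in air and the second when oxygen is scarce. COX5A (YNL052W) read 0.31, 0.00, 0.15 and 0.39, a mean of 0.21 ± 0.16 (adjusted p = 0.504). COX5B (YIL111W), which is not among the 37 members, read −0.66, −0.83, −1.54 and −2.19, a mean of −1.30 ± 0.28 (95% interval −1.97 to −0.64; adjusted p = 0.0622). All 4 COX5B values lay below all 4 COX5A values, and the difference COX5A minus COX5B was 0.97, 0.83, 1.69 and 2.57. COX5B was lower in experiment 2, at −1.86 against −0.74 in experiment 1, as CYC7 was at −1.85 against its single value of −0.24. COX5B passed the threshold in 5 of 13 alternative fits, among them 4 separate arrays (adjusted p = 0.0283) and median-centred arrays (adjusted p = 0.0449), and over the 13 its adjusted p ran from 0.00554 to 0.489.

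**Figure D3:**
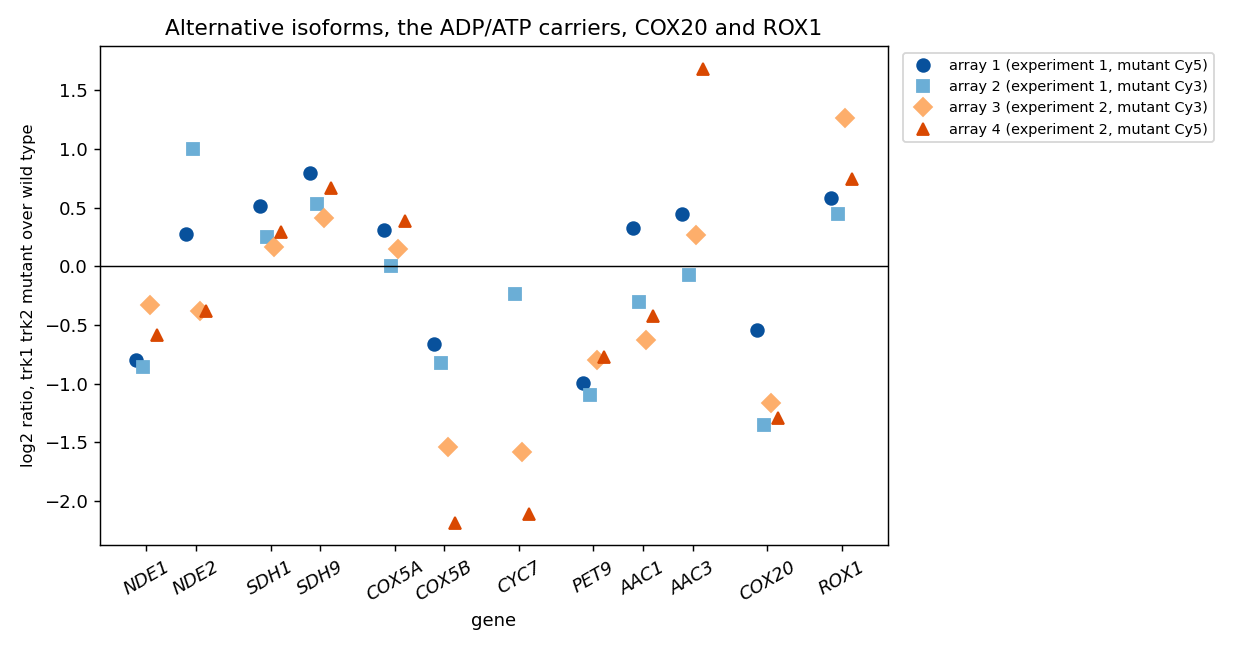
Log2 ratio of mutant over wild type (vertical axis) on each array for the paralogue pairs of the chain, the ADP/ATP carrier genes, COX20 and ROX1 (horizontal axis). The COX5B points lie below the COX5A points on every array, the PET9 points lie between −1.09 and −0.77, and CYC7 has no value on array 1.

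The ATP synthase, the complex with most tested members, had members on both sides of 0. Of its 11 subunits, all tested, ATP3, ATP14, ATP15 and ATP17 were positive on all 4 arrays, and ATP1, ATP2, ATP4 and ATP20 negative on all 4. The shares over all genes tested were 17.5% positive and 21.1% negative on all 4 arrays. In the catalytic F1 part, ATP1 (YBL099W) and ATP2 (YJR121W) encode the alpha and beta subunits that form the ATP-making hexamer. ATP1 read −0.43, −0.63, −0.23 and −0.33, a mean of −0.40 ± 0.17 (95% interval −0.81 to 0.01; adjusted p = 0.254). ATP2 read −0.58, −0.37, −0.21 and −0.33, a mean of −0.37 ± 0.17 (adjusted p = 0.281). The central stalk subunits of F1 did not share this sign. ATP3 (YBR039W), the gamma subunit, lay between 0.07 and 0.41, and ATP15 (YPL271W), the epsilon subunit, had the highest mean of the complex and read 0.55, 0.11, 0.07 and 0.45, 0.29 ± 0.16 in the mean (adjusted p = 0.365). Without array 1 ATP17 was the highest (0.24 against 0.19 for ATP15), and without array 4 ATP7 (0.24 against 0.20). ATP16 (YDL004W), the delta subunit, read −0.20 and −0.17 in experiment 1 and 0.45 and 0.08 in experiment 2. On each of the 4 arrays ATP1 and ATP2 lay below ATP3, ATP15 and ATP16.

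Among the peripheral stalk and membrane subunits, ATP20 (YPR020W), subunit g, which helps ATP synthase form dimers, had the lowest mean of the 31 tested members, although NDE1 was lower without array 1 (−0.66 against −0.56) and without array 3 (−0.71 against −0.63). ATP20 read −1.14, −0.67, −0.54 and −0.36, all below 0, with a mean of −0.68 ± 0.19 (95% interval −1.12 to −0.23; adjusted p = 0.115). ATP20 passed in 3 of 13 alternative fits, and over the 13 its adjusted p ran from 0.0234 to 0.548. The stalk subunits ATP4 (YPL078C) and ATP5 (YDR298C) averaged −0.20 ± 0.17 and −0.13 ± 0.16, and ATP7 (YKL016C) 0.24 ± 0.16. ATP14 (YLR295C), subunit h, stayed between 0.06 and 0.18, and ATP17 (YDR377W), subunit f, between 0.03 and 0.40. TIM11 (subunit e), the partner of ATP20 in dimer formation, is outside the 37 and read 0.33, 0.24, 0.13 and 0.16, a mean of 0.21 ± 0.16 (adjusted p = 0.503). ATP20 and TIM11 thus lay on opposite sides of 0 on every array. The median mean was 0.04 for the 5 F1 subunits and 0.00 for the 6 others.

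**Figure D4:**
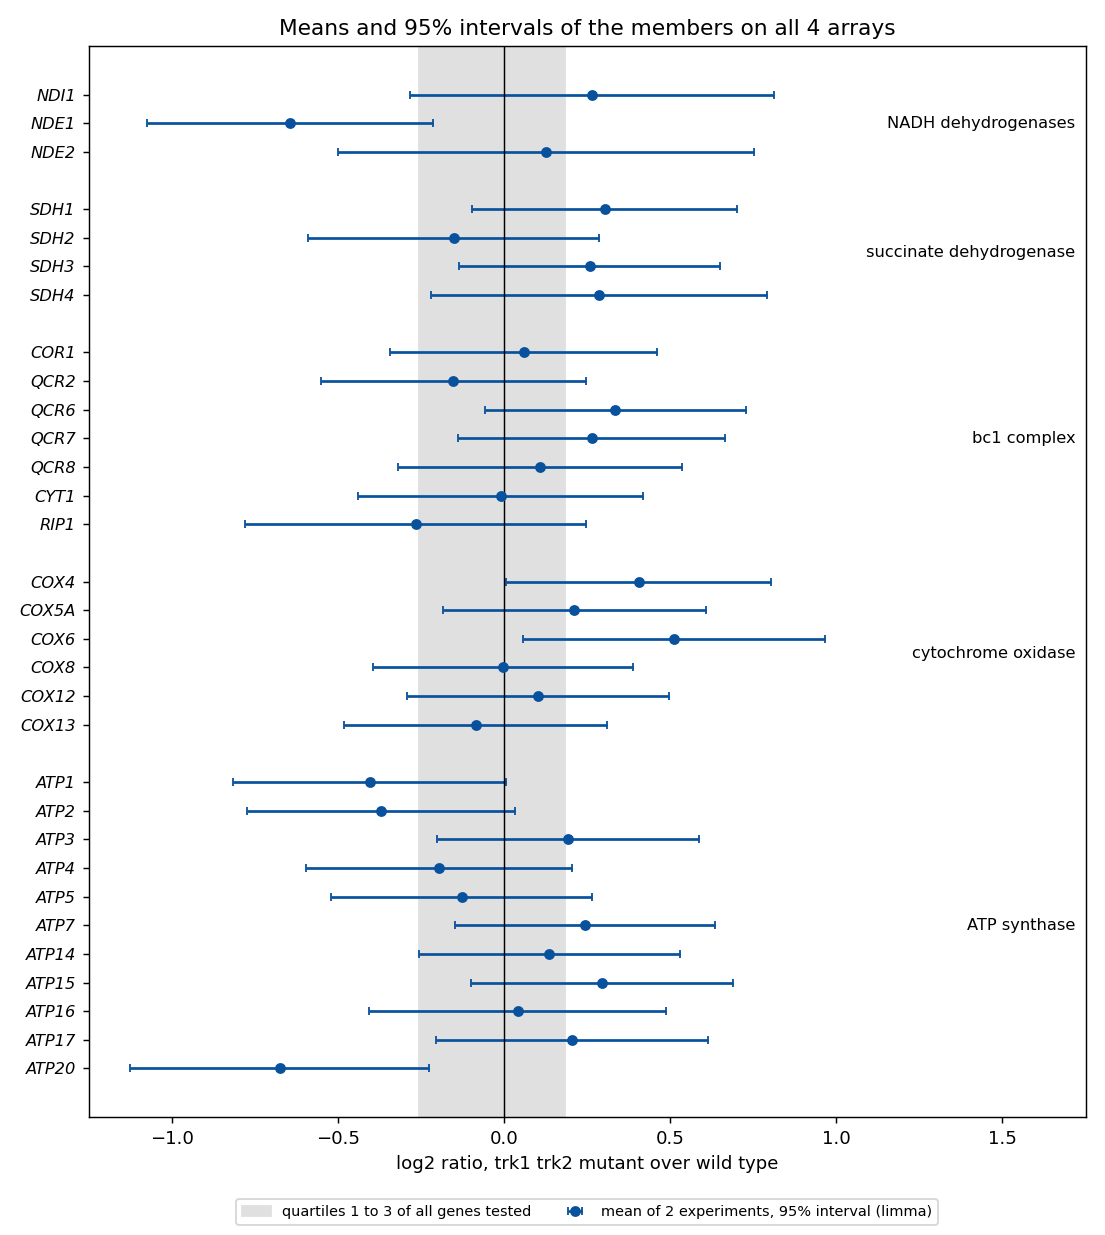
Mean log2 ratio of mutant over wild type (horizontal axis) with limma's 95% interval for the 31 members on all 4 arrays (rows), beside the span between the lower and upper quartiles of all genes tested (grey band, −0.26 to 0.18). Intervals of NDE1 and ATP20 lie below 0 and those of COX4 and COX6 above 0, and the other intervals include 0.

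Genes that build, feed and regulate the chain were read from the same fit. Of 48 assembly factors and translational activators 31 were tested, with a median mean of −0.16, and 1 fell and 0 rose, beside 1.74% lower and 1.62% higher over all genes. The one that fell was COX20 (YDR231C), a chaperone for the mitochondrially made subunit 2 of cytochrome oxidase. It read −0.54, −1.35, −1.17 and −1.29, and was 2.12-fold lower in the mutant (−1.09 ± 0.17, limma adjusted p = 0.0308). Its call ended without array 2 (adjusted p = 0.139) and without array 3 (adjusted p = 0.395). It also ended when genes needed only 1 array of each experiment (adjusted p = 0.0596). COX20 passed in 10 of 13 alternative fits, some of which count dye-swapped repeats as replicates. MSS51, a translational activator of subunit 1 of cytochrome oxidase, was negative on all 4 arrays, between −0.90 and −0.50, with a mean of −0.68 ± 0.16 (adjusted p = 0.0877). In this list 9 of the 31 were negative and 4 positive on all 4 arrays, beside 21.1% and 17.5% of all genes.

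Of 6 carrier genes 5 were tested, and 1 fell, beside 1.74% of all genes. PET9 (YBL030C), the main ADP/ATP carrier, which exports the ATP made by the synthase, read −0.995, −1.09, −0.80 and −0.77. The 4 values lay close together, and PET9 was 1.88-fold lower in the mutant (−0.91 ± 0.17, limma adjusted p = 0.0473). Without array 1, 2 or 3 its adjusted p was 0.0645, 0.0909 and 0.462. When genes needed only 1 array of each experiment, it was 0.0822. PET9 passed in 9 of 13 alternative fits, some of which count dye-swapped repeats as replicates. Its mean stayed between −0.94 and −0.86 in every alternative. The minor carriers differed from it: AAC1 read 0.33, −0.30, −0.63 and −0.43, and AAC3, expressed when oxygen is scarce, read 0.45, −0.07, 0.27 and 1.68. PET9 lay below AAC1 and AAC3 on every array. The 3 genes are similar in sequence, so their ratios are uncertain.

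Among the regulators, the activator subunits HAP2, HAP3 and HAP5 averaged 0.07 ± 0.17, −0.11 ± 0.26 and −0.13 ± 0.18 (adjusted p from 0.712 to 0.838). HAP4, the subunit whose level limits the activator, read 0.42 and 0.41 on arrays 1 and 2 and was empty on arrays 3 and 4, so it has values from experiment 1 alone. HAP1, a gene for a heme-responsive activator, read −0.29, 0.38, 1.53 and 0.32, a mean of 0.49 ± 0.24 (adjusted p = 0.313). This ratio is of the transcript and does not show whether the protein was active in these strains. ROX1, a repressor of genes used when oxygen is scarce, read 0.58, 0.45, 1.26 and 0.74. It was positive on every array but did not pass (0.76 ± 0.19, adjusted p = 0.0945), and over 13 alternatives its adjusted p ran from 0.0169 to 0.523.

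The pathways around the chain gave 0 calls in limma, and over all genes 3.36% were called, 20.2% had an unadjusted p under 0.05 and 21.1% were negative on all 4 arrays. Of 11 TCA cycle genes 10 were tested, with a median mean of −0.19 and 5 negative on all 4 arrays. The lowest was LSC2, the beta subunit of succinyl-CoA ligase, at −0.58, −0.58, −0.73 and −1.46 with a mean of −0.84 ± 0.19 (adjusted p = 0.0739). At an unadjusted p under 0.05 there were 2, LSC2 and KGD2, a subunit of alpha-ketoglutarate dehydrogenase. The 9 tested coenzyme Q genes had a median mean of −0.23 and 1 gene at an unadjusted p under 0.05, COQ1. The 7 tested heme genes had a median of −0.16 and 0 such genes. The 9 tested iron-sulfur cluster genes had a median of −0.18 and 1 such gene, ISU1, a scaffold for cluster assembly. Unlike LSC2, KGD2 and COQ1, which were lower, ISU1 was higher, at 0.73, 0.69, 0.815 and 0.21 with a mean of 0.61. Of the 9 iron-sulfur genes 4 were positive and 2 negative on all 4 arrays, beside 17.5% and 21.1% of all genes. Of the 3 dehydrogenases that feed electrons from glycerol phosphate and lactate, 2 were tested, with a median of −0.20 and 0 genes at an unadjusted p under 0.05. The 42 tested mitochondrial ribosomal proteins had a median of −0.20, with 18 negative on all 4 arrays and 12 at an unadjusted p under 0.05, 11 of them lower, beside 12.9% lower over all genes.

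Side by side, the medians on arrays 1 to 4 were 0.27, 0.00, 0.04 and −0.08 for the respiratory chain and ATP synthase, −0.07, −0.16, −0.39 and −0.24 for the mitochondrial ribosomal proteins, and −0.09, −0.08, −0.01 and −0.63 for the TCA cycle. The respiratory chain median was above both on every array. The difference was not tested, because genes of one list are not replicates. All 3 medians on array 4 were below the gene median of 0.04 there.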

How the data were processed

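The deposited table gives 1 log2 ratio per gene and array. The sources used here give no base, normalization, centring or direction, and base 2 was assumed. Spots under 120 µm or under 100 fluorescence units had been set aside by the authors, per the labels. Total RNA (8 µg) was copied from oligo(dT) and labelled with Cy3 or Cy5, per the labels' protocols. Arrays were paired into experiments by the shared wording of their descriptions, and the titles number the 4 arrays separately. Dyes balance in this pairing, but also in the other pairing tried, of arrays 1 and 3 and of arrays 2 and 4. Only the word independent says that cultures were separate, so the spread between experiments may be technical. Rows were matched to RefSeq locus tags (R64 table, 5662 of 6212), used for names only.

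Genes with 4 values were tested with limma 3.58.1 (lmFit, eBayes) in R 4.3.3 on 2 experiment means, with Benjamini-Hochberg adjustment over 4255 genes, a threshold of 0.05 and a prior of 5.33 degrees of freedom. The procedure was run on simulated data drawn from its own fitted variances. The only recovery required there was of changes larger than the mean of any tested member. It therefore does not bear on the absence of calls among the members. Alternatives changed the pairing, used separate arrays, a dye term or a random block, centred or scaled arrays, changed the filter on missing values or the shrinkage, or left out an array.

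All 37 members could be named. Array values were given for members past the test, at the extremes of a complex, in isoform pairs or with missing values; COX4, ATP1, ATP2 and ATP16 were added after their values were seen. Among other lists, called genes, the HAP genes and COX5B, as one of an isoform pair, were named. SDH9, SHH3, SHH4, TIM11, MSS51, AAC1, AAC3, ROX1, LSC2, KGD2, COQ1 and ISU1 were added after their values were seen. The members and lists were chosen with earlier results of these data known. Promoter and protein sequences were not used here.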

Additional observations from a re-analysis of the deposited data

Results flagged for a closer look

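Within 3 of 44 sets of 4 array values, 1 array lay far from the other arrays: its gap to the nearest value, as a share of the whole range, was above Dixon's 95% critical value for 4 values. Chance flags about 1 in 20 such sets. COX4 read 0.162 on array 4 against 0.472 to 0.5 on the other arrays. QCR8 read −0.41 on array 4 against 0.242 to 0.331. COR1 read 0.421 on array 1 against −0.113 to −0.031.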

How the results depend on the processing

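Spot intensities were not used, and 2 experiments set the precision. Of 403 member values recomputed over the alternatives, 382 kept their sign and stayed short of the threshold, 8 passed it and 13 changed sign. Changing the pairing, separate arrays, the dye term, random block, filters or shrinkage leaves a tested member's mean unchanged. No sign could change in those fits, so the 382 overstates how stable the signs are. All 13 changes of sign came with median-centred arrays or with 1 array left out. Over all genes, 69 passed as higher and 74 as lower. The counts, higher and lower, were 255 and 473 with the other pairing, 163 and 250 with 4 separate arrays, 185 and 292 with the experiment as a random block, 130 and 179 when genes needed 2 values and arrays were not averaged, and 40 and 39 with at least 1 array of each experiment. Median-centred arrays gave 106 higher, and a dye term 142 lower. Without 1 array the counts were 0 to 96 higher and 0 to 121 lower, the 0 being without array 3, whose partner array 4 then stood alone. Members passed as follows: 1 higher (COX6) and 2 lower (NDE1, ATP20) with the other pairing, 2 lower (NDE1, ATP20) with 4 separate arrays and with the random block, and 1 lower (NDE1) with at least 2 values. The cause was not tested, except that separate arrays count dye-swapped repeats as replicates. The random block came close to this, since its estimated correlation within experiments was −0.0461. Over all genes, r was 0.80 between arrays 1 and 2 and 0.39 between arrays 3 and 4. Between arrays read as different experiments, r ran from 0.27 to 0.69, so the pairing is not settled by these values. Members negative on every array used numbered 5 to 9 when 1 array was left out, 9 without array 1. With median-centred arrays CYT1 stood at 0.0414 and COX8 at 0.0489. Without 1 array, ranges crossing 0 were −0.0208 to 0.55 for NDI1, −0.0535 to 0.31 for NDE2, −0.0735 to 0.19 for COR1, −0.0618 to 0.28 for QCR8, −0.083 to 0.063 for CYT1, −0.024 to 0.019 for COX8, −0.17 to 0.0025 for COX13, −0.26 to 0.00675 for ATP5 and −0.0508 to 0.13 for ATP16. Complex medians moved by less than their SD over the 4 arrays, but 3 of 5 changed sign: the NADH dehydrogenases to −0.0535 without array 2 and −0.0208 without array 3, the bc1 complex to −0.0735 without array 1, −0.036 without array 3 and −0.01 with incompletely measured members, and the ATP synthase to −0.0508 without array 3. Cytochrome oxidase stood at 0.0498 with incompletely measured members. The array medians over all members with a value there were added after seeing the data.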
